A study of Saccharomyces cerevisiae with 64 samples.

Results

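The cytosolic ribosomal protein genes of budding yeast were examined for the binding of Spp1 and Bre2 before and during early meiosis. Both proteins belong to Set1C, the complex that methylates histone H3 at lysine 4. Members were the protein-coding genes whose symbol begins with RPL or RPS and a digit, together with the stalk protein genes RPP0, RPP1A, RPP1B, RPP2A and RPP2B. The rule found 137 of 6002 nuclear protein-coding genes (2.28%), of which 81 belong to the large and 56 to the small subunit. Of these, 118 form 59 pairs of paralogs and 19 have no second copy in the list. A gene counted as occupied in a peak list when a deposited peak had its midpoint between 500 bp upstream of the coding start and the coding end. Peaks were mapped by chromatin immunoprecipitation and sequencing, and presence or absence in a list is the measurement throughout, because the lists hold no read counts.

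Ribosomal protein genes are among the most heavily transcribed genes of a growing yeast cell. They are switched as a group by Rap1, Fhl1, Ifh1 and Sfp1 in response to nutrients and are shut down when cells starve or sporulate. Set1C places its mark over the early part of transcribed genes, and the PHD finger of Spp1 binds that mark. Most yeast ribosomal proteins are encoded by a pair of near-identical paralogs left by a duplication of the genome.

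All strains were diploids of the SK1 background, which sporulates efficiently. Bre2-myc, Spp1-myc lacking the PHD finger, Spp1-myc lacking the CXXC domain and full-length Spp1-myc each had 1 library in pre-sporulation medium (SPS) and 1 at 0, 2, 4 and 6 h in sporulation medium. All 4 proteins carried a 13-copy myc tag on both alleles. Spp1 with a 3-copy HA tag was mapped in H3K4R, H3R2A and H3 wild-type strains, in 2 libraries each at 0, 2, 4 and 6 h, and these strains carried hht1 and hht2 deletion alleles, the second of which the genotype label sets against an hht1 deletion, and took H3 from HHT2 on a centromeric plasmid with HHF2 and TRP1. All strains were trp1 and ura3, with leu2 and his4 over wild-type alleles, and the H3 strains were also lys2 and ho::LYS2. A competition series between 4.5 and 6.5 h held 8 libraries of Spp1-GFP, from a diploid with 1 SPP1-13xmyc allele and 1 GFP-SPP1 allele under the copper-responsive CUP1 promoter, and 10 libraries labelled Spp1-myc, whose genotype label gives the myc tag on both alleles. Input and untagged samples were not analysed here, so no background level stands beside the peaks.

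The 62 lists held 87 to 2119 peaks, and read depth is unknown. HHT1, deleted in the H3 strains, held a peak in 0 of 24 of their lists and in 18 of 20 lists of the myc-tagged strains. Some replicate pairs differed widely at ribosomal protein genes. The H3 wild-type libraries at 0 h held 106 and 2 occupied members, although 77.6% of the peaks of the shorter list overlapped the longer one. The H3R2A libraries at 0 h held 111 and 12, with 69.0% overlap, and the H3K4R libraries at 4 h held 68 and 13, with 67.3% overlap. Test results that change when 1 of these libraries is left out are given with and without it. Nothing in the labels states that replicates came from separate cultures, and a p-value here reflects the spread between these samples alone.

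Occupancy of the ribosomal protein genes was concentrated at 0 h in the myc-tagged strains. Bre2-myc occupied 16 of 137 members in SPS, 130 at 0 h, 3 at 2 h, 3 at 4 h and 8 at 6 h. PHD-deleted Spp1-myc occupied 13, 127, 1, 5 and 10 members at the same points. CXXC-deleted Spp1-myc occupied 11, 106, 2, 2 and 13, and Spp1-myc 6, 107, 2, 3 and 15. In every one of the 4 strains the 0 h list was the only one that held more than 16 members. The share at 0 h was 94.9% for Bre2-myc (Wilson 95% interval 89.8 to 97.5), 92.7% for PHD-deleted Spp1-myc (87.1 to 96.0), 77.4% for CXXC-deleted Spp1-myc (69.7 to 83.6) and 78.1% for Spp1-myc (70.5 to 84.2). The intervals cover counting error over genes only. All coding genes were occupied in 21.0%, 22.0%, 25.3% and 34.0% of cases in those 4 lists. At the 12 later time points the share of members lay between 0.730% and 10.9% and was below the share of all coding genes (10.9% to 19.6%) in each of the 12 lists.

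**Figure D1:**
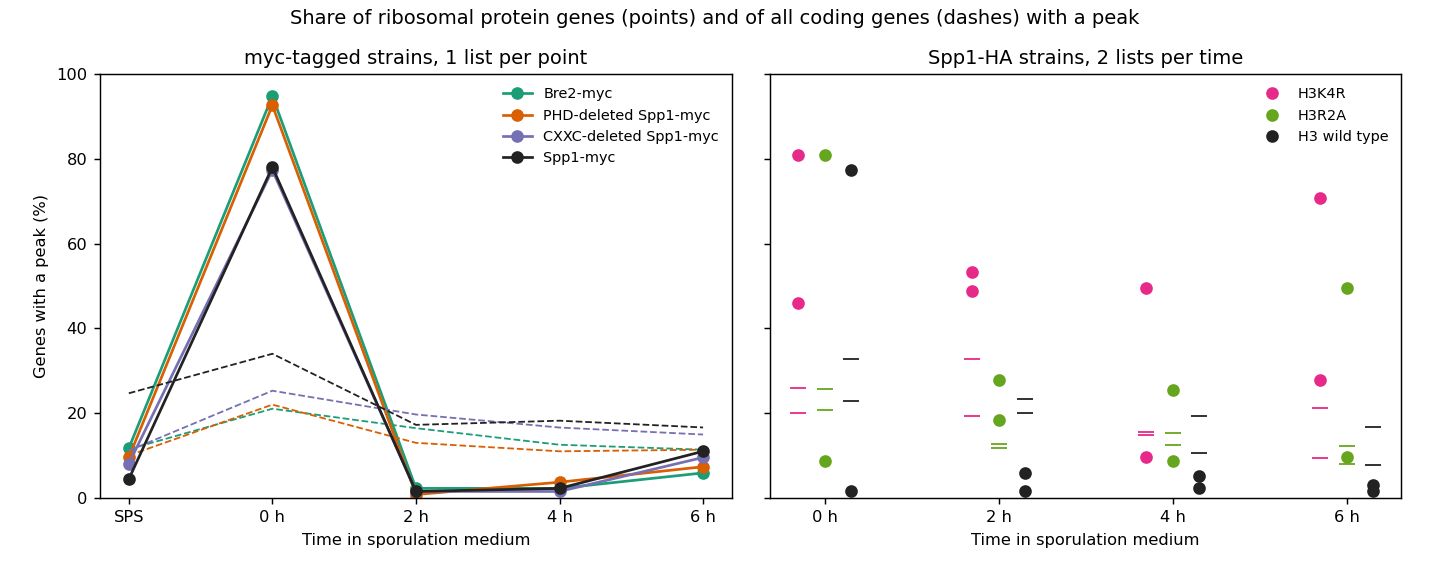
Percent of the 137 ribosomal protein genes (points) and of all 6002 coding genes (dashed lines on the left, short bars on the right) with a peak in each list, by time in sporulation medium; SPS is the medium before transfer. The myc-tagged strains (left, 1 list per point) stood at 77.4% to 94.9% at 0 h and at 10.9% or less at every later time, whereas the Spp1-HA lists (right, 2 per time) of H3K4R reached up to 70.8% and those of H3R2A up to 49.6% at later times, with H3 wild type at 5.84% or less.

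Of the members, 97 were occupied at 0 h in all 4 myc-tagged strains, and 75 (54.7%) were occupied at 0 h alone of the times in sporulation medium in each of the 4. Of all coding genes, 3.7% were. In Spp1-myc alone, 91 members (66.4%) were so, against 16.5% of all coding genes. These classes come from 1 list per strain and time and carry no test. Only 5 members lacked a 0 h peak in all 4 strains, namely RPL1A, RPL4A, RPL11A, RPL41B and RPS6A.

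The later times were set against 0 h over the 4 myc-tagged strains, 12 lists against 4, by an exact test with strain as stratum. No member and 0% of the 3122 genes tested passed after Benjamini-Hochberg adjustment, and the lowest adjusted p was 0.051. The smallest p the design allows was 0.00391. It was reached by members with no peak in 12 later lists and a peak in 4 of 4 lists at 0 h, such as RPL11B, which binds 5S rRNA with Rpl5, RPL12A, RPL13A, RPL13B, RPL14B and RPL16B (exact stratified test, adjusted p = 0.051). At an unadjusted exact p under 0.05, 108 of 133 members tested were occupied less often at the later times and 0 more often, against 17.7% of all genes tested that were occupied less often. The call depended on the setting. With a window of 250 bp upstream in place of 500 bp, 77 members passed as lower, with peaks in the window of 1 gene only 74, and by Fisher's exact test without strata 98. Genes outside the group passed under each of these settings too, and the counts over all genes are given with the alternatives at the end.

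Few members had a peak at 2, 4 or 6 h in the myc-tagged strains. RPL15B, whose protein lies near the entrance of the nascent peptide tunnel of the large subunit, was occupied by Spp1-myc at 0, 2, 4 and 6 h. RPS13, of the small subunit, and RPL15B were the 2 members in the Spp1-myc list at 2 h, and RPL41B, which encodes the smallest ribosomal protein, joined them at 4 h. RPL9B was occupied at 0, 2, 4 and 6 h by Bre2-myc and by PHD-deleted Spp1-myc. In the Spp1-myc list at 6 h the 15 occupied members included RPL8A, RPL8B, RPL9B, RPL10, RPL15A, RPL15B, RPL17A, RPP1A, RPS1B, RPS2, RPS12, RPS15, RPS20 and RPS31, and all 15 were also occupied by Spp1-myc at 0 h. Of all 995 coding genes in that 6 h list, 547 (55.0%) were in the 0 h list, which held 107 of 137 members (78.1%) and 34.0% of all coding genes. Of 8 members in the Bre2-myc list at 6 h, 6 (75.0%) were in the Spp1-myc list, against 66.6% of all coding genes in it. For PHD-deleted Spp1-myc 8 of 10 members (80.0%) were, against 78.4% of all coding genes, and for CXXC-deleted Spp1-myc 8 of 13 (61.5%), against 53.6%.

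RPL15B ran against the rest of the group, as did RPL41B with 1 later list and none at 0 h. It was occupied in 11 of 12 later lists of the myc-tagged strains, against 2 of 4 lists at 0 h (exact stratified test, adjusted p = 0.407). The later list without it was that of PHD-deleted Spp1-myc at 2 h. It was absent at 0 h from the lists of Bre2-myc and PHD-deleted Spp1-myc, which held the most members. In the H3 wild-type strain it had a peak in 5 of 6 later lists and in 1 of 2 lists at 0 h, the list with only 2 occupied members. Its peaks lay within the gene (chromosome XIII in R64, the sacCer3 build), with midpoints 98 to 473 bp from the coding start. At 2 h the Bre2-myc peak spanned 509800 to 509950, and at 6 h it spanned 509750 to 510300. Its paralog RPL15A was occupied in 3 of 12 later lists of the myc-tagged strains, against 4 of 4 at 0 h. The copies are near-identical, so the split of peaks between them is uncertain.

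The later Spp1-myc peaks of RPS13 and RPL41B lay upstream of the genes. The RPS13 peaks of Spp1-myc at 2 and 4 h both spanned chromosome IV 578900 to 579050, at −483 bp from the coding start and inside the window of another gene as well. At 0 h Spp1-myc had peaks at 579600 to 579850 and 580050 to 580250, within the gene. The RPL41B peak of Spp1-myc at 4 h spanned chromosome IV 221950 to 222100, at −224 bp and likewise inside the window of another gene. The same 151 bp interval was called in SPS in all 4 myc-tagged strains.

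**Figure D2:**
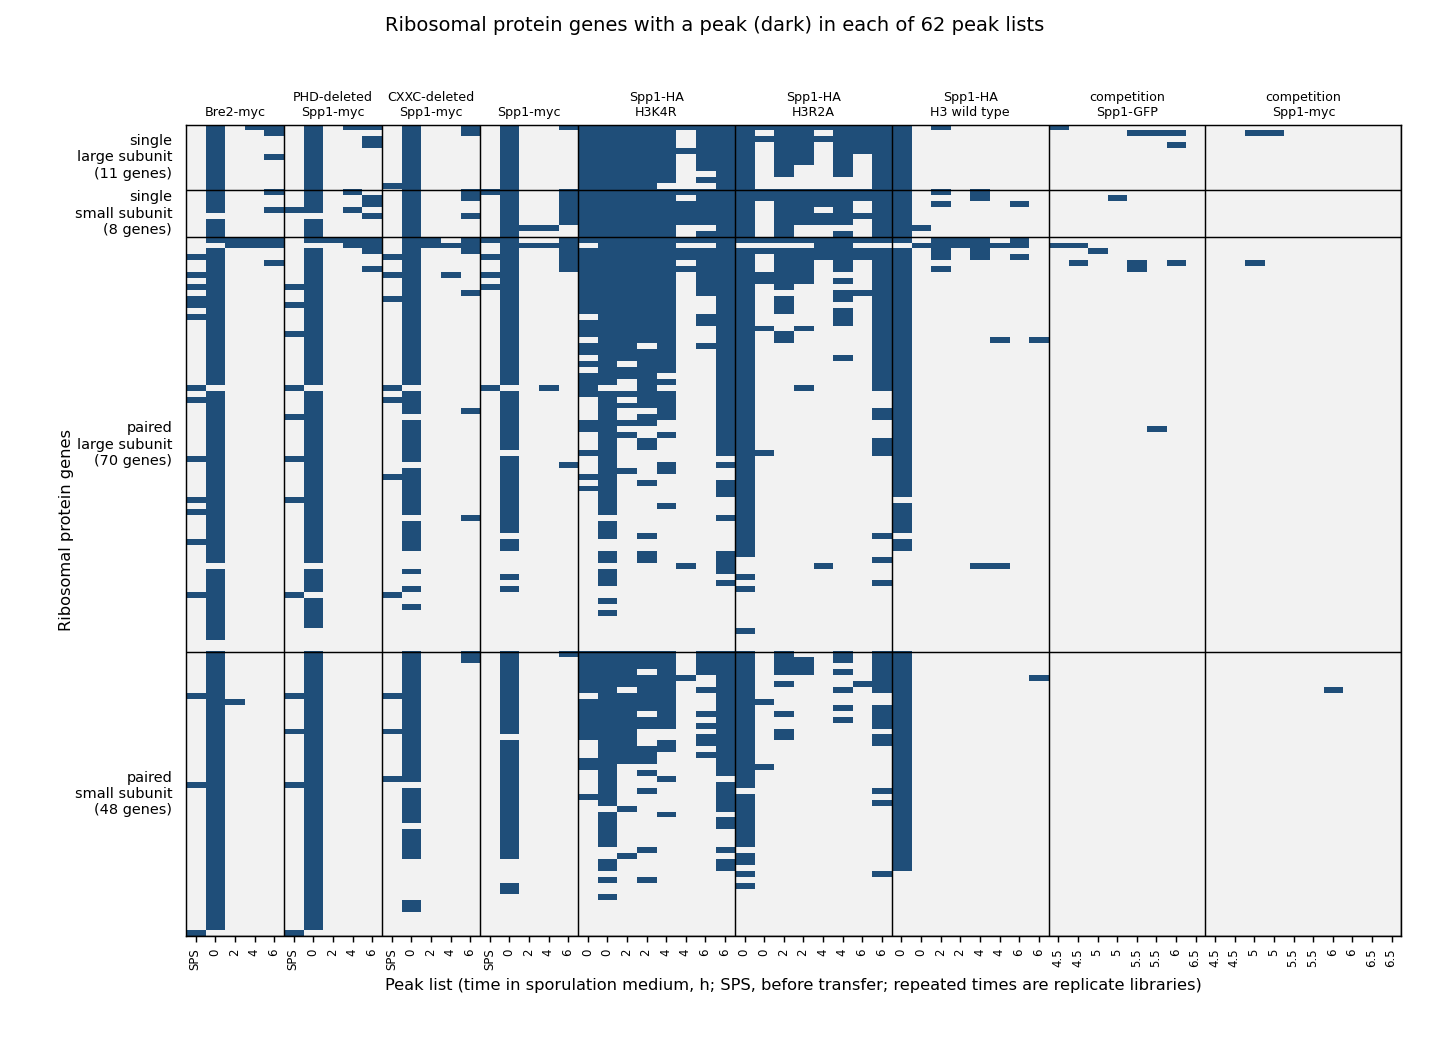
Each row is a ribosomal protein gene and each column a peak list, with dark cells where a peak midpoint lay in the gene window; rows are grouped by copy number and subunit and ordered by the number of lists, and columns run by strain and time. The myc-tagged strains show a dark column at 0 h and few cells elsewhere, while the later H3K4R and H3R2A columns hold 12 to 97 dark cells, against 2 to 8 in H3 wild type, and a larger share of the 19 genes without a paralog (top 2 blocks) than of the paired genes is dark in 4 or more of the 6 later lists of each mutant.

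Over the 4 myc-tagged strains together, most peaks at members lay upstream of the genes in SPS and inside them at 0 h. In SPS, 89.1% of the 46 peaks at members in the 4 myc-tagged strains had their midpoint upstream of the coding start, with a median of −232 bp, against 38.3% of the peaks at other genes, whose median was 250 bp inside the gene. In the Bre2-myc, PHD-deleted and CXXC-deleted lists 93.8% of 16, 100% of 13 and 90.9% of 11 member peaks lay upstream. At other genes in those lists 53.3%, 48.4% and 49.2% did. The full-length Spp1-myc list had 50.0% of 6 member peaks upstream, against 21.8% at other genes. It supplied 1747 of the 4140 pooled peaks at other genes, so the pooled contrast mixes unlike lists. In these counts a peak entered once for each gene whose window held it. Of the 46, 26.1% also lay in another gene's window, against 24.7% at other genes. At 0 h only 6.10% of 525 member peaks lay upstream and the median was 337 bp inside the gene. At other genes 8.66% lay upstream and the median was 295 bp. Ribosomal protein genes are short, with a median length of 771 bp (introns included) against 1230 bp for other coding genes, and 45.0% of member peaks at 0 h lay past the middle of the gene, against 21.6% at other genes. At 2, 4 and 6 h together, 70 member peaks had a median of 312 bp inside the gene. Apart from the SPS shares by list, these positions pool 4 lists per stage (12 for the later times), and none were tested.

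The SPS peaks at members were also narrow and low in their lists. Their median width was 151 bp and their median score percentile within their own list was 22.5, against 251 bp and 49.2 at other genes. In all, 25 members had a peak in SPS in at least 1 strain, and only RPL41B in all 4. The RPL41B interval also lay in the window of another gene. Members occupied in 3 of 4 strains were named after their values were seen. Those with upstream peaks were RPL36B, RPL42B, RPP1B and RPS16A, and RPL8A was the exception, with midpoints 437 to 518 bp inside the gene. RPS6A, which encodes a small-subunit protein that is phosphorylated under the control of TOR, had peaks in SPS only, in Bre2-myc and PHD-deleted Spp1-myc. These lay at −339 and −338 bp. It had none in the 10 lists at 0 h. With 1 SPS library per strain, the counts of 6 to 16 members do not rank the strains.

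**Figure D3:**
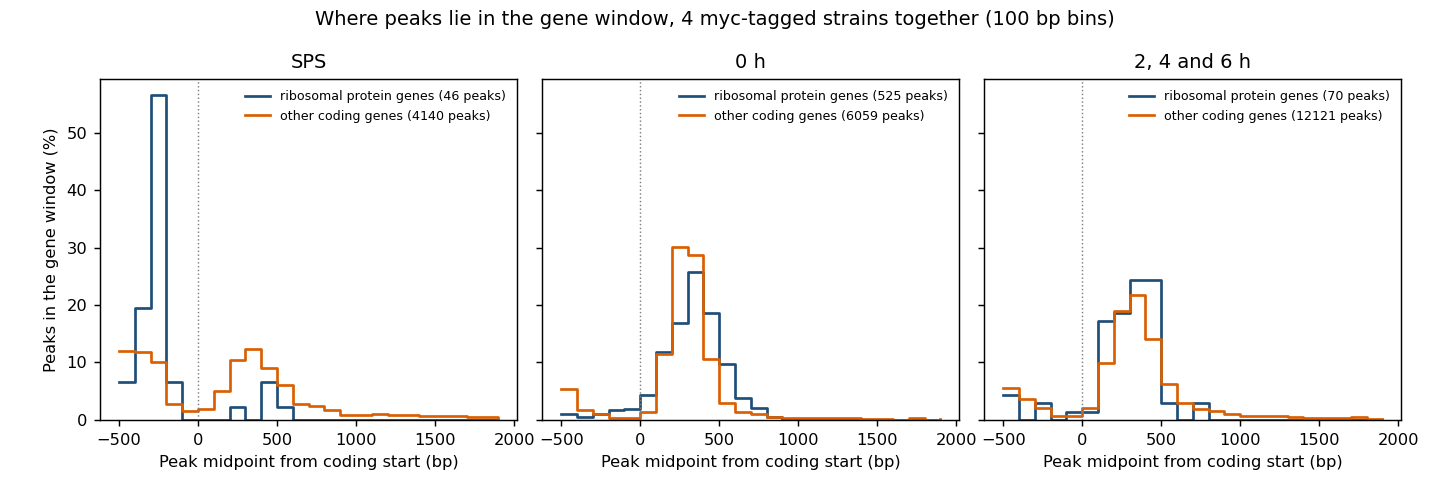
Distribution of peak midpoints relative to the coding start (0 bp, dotted line) in 100 bp bins, as a percent of the peaks in the gene windows, for ribosomal protein genes and other coding genes in the 4 myc-tagged strains. A peak counts once for each gene whose window holds it. In SPS 56.5% of the 46 member peaks fall in the bin from −300 to −200 bp, while at 0 h (525 peaks) and later (70 peaks) most lie within the gene.

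At 0 h Bre2-myc and PHD-deleted Spp1-myc differed from full-length Spp1-myc in the width of the peaks as well as in the number of members. Among the 97 members occupied in all 4 strains, the median of the widest peak was 601 bp for Bre2-myc, 501 bp for PHD-deleted, 301 bp for CXXC-deleted and 301 bp for full-length Spp1-myc. Bre2-myc peaks were wider than Spp1-myc peaks at 92 members (94.8%) and narrower at 2. For PHD-deleted Spp1-myc the counts were 83 (85.6%) and 2, and for CXXC-deleted Spp1-myc 34 (35.1%) and 31. At the 862 other genes occupied in all 4 lists, Bre2-myc peaks were wider than Spp1-myc peaks at 26.7%, PHD-deleted at 29.4% and CXXC-deleted at 33.6%, with medians of 351, 351, 401 and, for Spp1-myc, 401 bp. RPS13 shows the form of the difference. Bre2-myc had 1 peak from 579500 to 580450 on chromosome IV and PHD-deleted Spp1-myc 1 from 579550 to 580450, where CXXC-deleted Spp1-myc had 2 peaks, 579600 to 579850 and 580050 to 580350, and Spp1-myc the 2 given above.

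Score ranks were likewise higher in the same pair of strains. The median score percentile of member peaks at 0 h was 78.2 for Bre2-myc and 72.1 for PHD-deleted Spp1-myc, against 53.7 for CXXC-deleted and 58.0 for full-length Spp1-myc. Bre2-myc had 25 members at 0 h that Spp1-myc lacked, and PHD-deleted Spp1-myc had 22. The reverse set was RPL15B and RPS31 in both cases. RPS31 encodes a fusion of ubiquitin to a small-subunit protein. CXXC-deleted and full-length Spp1-myc shared 99 members, with 7 and 8 of their own. With 1 list per strain, the strain and the library cannot be told apart, and the lists differ in size, with 1371, 1382, 1583 and 2119 peaks at 0 h.

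**Figure D4:**
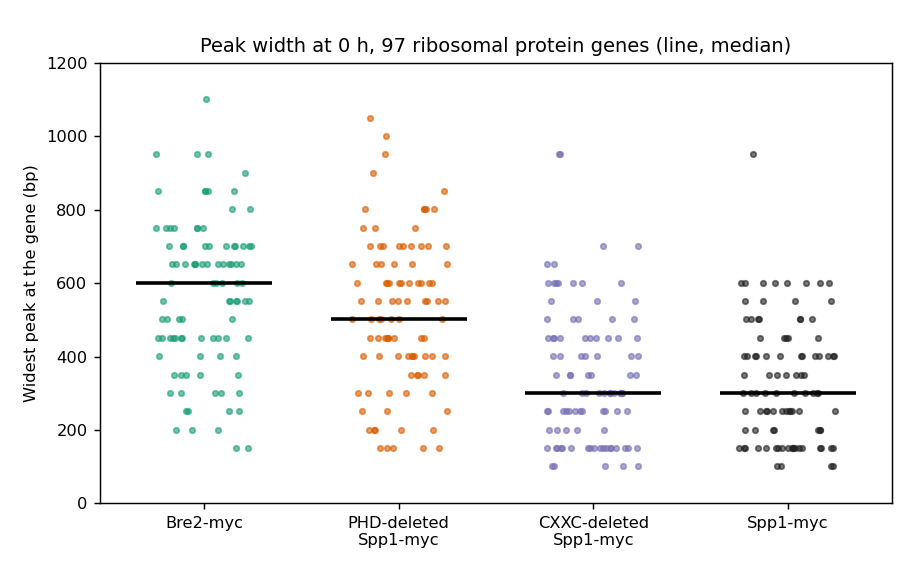
Width in bp of the widest peak at each of the 97 ribosomal protein genes occupied at 0 h in all 4 myc-tagged strains, 1 point per gene with the median as a line. The medians were 601 bp (Bre2-myc), 501 bp (PHD-deleted), 301 bp (CXXC-deleted) and 301 bp (Spp1-myc).

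In strains with mutant histone H3, more ribosomal protein genes had peaks at the later times than in H3 wild type. Over 2, 4 and 6 h the H3K4R lists held 59.3 ± 29.5 members, the H3R2A lists 31.8 ± 20.7 and the H3 wild-type lists 4.33 ± 2.58 (SD, n = 6 each). The H3K4R libraries held 67 and 73 members at 2 h, 68 and 13 at 4 h and 38 and 97 at 6 h. Those of H3R2A held 38 and 25, 12 and 35, and 13 and 68, and those of H3 wild type 8 and 2, 7 and 3, and 4 and 2. All 12 mutant lists held more members than any of the 6 wild-type lists. At 0 h the counts were 63 and 111 for H3K4R, 111 and 12 for H3R2A and 106 and 2 for H3 wild type, so the groups overlapped there. The shares of all coding genes at the later times were 9.43% to 32.8% in H3K4R, 7.83% to 15.3% in H3R2A and 7.75% to 23.3% in H3 wild type. Members exceeded that share in 5 of 6 H3K4R lists, in 5 of 6 H3R2A lists and in 0 of 6 H3 wild-type lists.

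Per gene the comparison of H3K4R with H3 wild type used 8 against 8 libraries and Fisher's exact test with adjustment over 3382 genes. No member and 0% of the genes passed. The lowest adjusted p was 0.225, for RPL5, which binds 5S rRNA, RPS15, RPS20 and RPS31, each occupied in 8 of 8 H3K4R libraries and 1 of 8 wild-type libraries (Fisher's exact test, p = 0.0014). RPL10, which joins the large subunit late in its assembly, and RPL8B had peaks in 8 of 8 against 2 of 8 (exact p = 0.00699, adjusted p = 0.462). The wild-type peak at each of the first 4 genes was in the first library at 0 h. Without that library all 4 passed (8 of 8 against 0 of 7 libraries, adjusted p = 0.0416 by Fisher's exact test), among 12 genes called. The 0 of 7 follows from the choice of library, which held the only wild-type peak at these genes. Leaving it out also left H3 wild type at 0 h with its second library alone, which held 2 occupied members. Of 119 members tested, 106 were occupied in more H3K4R than wild-type libraries and 3 in fewer, RPL6B, RPL13A and RPL15B, with a median difference of 50.0 percentage points against 0 over all genes tested. At an unadjusted exact p under 0.05, 46 members were occupied more often in H3K4R and 0 less often, against 3.4% of all genes tested that were occupied more often.

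H3R2A was compared with H3 wild type in the same way. No member and 0% of 3183 genes passed, and the lowest adjusted p of a member was 0.636, for RPL3, a protein of the peptidyl transferase centre, with peaks in 8 of 8 H3R2A against 1 of 8 wild-type libraries (Fisher's exact test, p = 0.0014). RPL10 and RPS2 were occupied in 8 of 8 against 2 of 8, RPS31 in 7 of 8 against 1 of 8, and RPL15A and RPS12 in 8 of 8 against 3 of 8. At an unadjusted exact p under 0.05, 11 of 118 members were occupied more often, against 0.88% of all genes tested. RPL15B again went the other way, with 2 of 8 against 6 of 8 (exact p = 0.132). The median member difference was 12.5 percentage points, against −12.5 over all genes. Between the mutants, 0% of 2970 genes passed in H3K4R against H3R2A. At an unadjusted exact p under 0.05, 4 members were occupied more often in H3K4R, RPL25, RPS27A and RPS29A in 7 of 8 against 2 of 8 and RPL43A in 6 of 8 against 1 of 8, and the background was 1.45%. The adjusted p was 1 for all 4.

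A peak in 4 or more of the 6 later H3K4R lists and in 0 of 6 later wild-type lists was found at 47 members (34.3%), against 1.95% of coding genes. For H3R2A it was found at 13 members (9.49%), against 0.516%, and all 13 were among the 47. Both classes require no peak in the same 6 wild-type lists, so part of this overlap is built in. The overlap over all coding genes was not counted. The threshold of 4 lists was chosen with these data in view. The 13 were RPL3, RPL5, RPL14B, RPL28, RPL29, RPL32, RPP0, RPP1A, RPS9A, RPS15, RPS20, RPS25A and RPS31. RPP0 encodes the base of the ribosomal stalk and RPP1A one of the acidic stalk proteins that it carries. In H3K4R, 11 members were occupied in all 6 later lists, among them RPL5, RPL8A, RPL8B, RPL9B, RPL10, RPL15A, RPS12, RPS15, RPS20 and RPS31, and in H3R2A 8 were, RPL3, RPL8A, RPL9B, RPL10, RPL15A, RPS2, RPS12 and RPS31. In H3 wild type none was in all 6, and only RPL9B and RPL15B were in 4 or more. Of 104 members with a later H3K4R peak, 99 (95.2%) had one at 0 h in the same strain, where 112 of 137 members (81.8%) had one. Of 71 in H3R2A, 66 (93.0%) did, where 111 members (81.0%) had one. For all coding genes the shares were 59.8% in H3K4R, where 28.1% had a peak at 0 h, and 71.4% in H3R2A, where 31.3% did.

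Genes without a paralog were occupied in more of the later mutant lists than paired genes. In 4 or more of the 6 later H3K4R lists, 18 of 19 unpaired members (94.7%) had a peak, against 40 of 118 paired members (33.9%). In H3R2A the counts were 13 of 19 (68.4%) and 8 of 118 (6.78%), and in H3 wild type 0 of 19 and 2 of 118. The unpaired member below the threshold in H3K4R was RPL38, with 3 lists. RPS31 was occupied in 6 of 6 lists in both mutants and RPS20 in 6 of 6 H3K4R and 5 of 6 H3R2A lists. RPL25, which docks the signal recognition particle at the tunnel exit, was occupied in 5 of 6 H3K4R lists and 1 of 6 H3R2A lists. In the 17 libraries of the series with 20 or more occupied members, the unpaired members had the higher share in 16, by a median of 52.4 percentage points. Over all 62 libraries, most of which held few members, unpaired members had the higher share in 40 and paired members in 14, with a median difference of 4.42 percentage points and a lowest value of −13.6. In SPS paired members had the higher share in 3 of 4 lists. Among the 17 libraries the exception was Bre2-myc at 0 h, where 94.7% of unpaired and 94.9% of paired members were occupied. Paralogs share sequence, and the part of shared reads in this difference was not tested.

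Large-subunit and small-subunit members were compared in the same way. In those 17 libraries the share of large-subunit members exceeded that of small-subunit members in 10 and fell below it in 7, with a median difference of 1.96 percentage points and a range of −6.31 to 11.6. Over all 62 libraries the large subunit had the higher share in 39 and the small subunit in 15, with a median difference of 1.23 percentage points, and in SPS the large subunit was higher in 4 of 4 lists. At 0 h in the myc-tagged strains 84.9 ± 8.34% of large-subunit and 87.1 ± 10.8% of small-subunit members were occupied (SD, n = 4). In 4 or more of the 6 later H3K4R lists, 34 of 81 large-subunit members (42.0%) and 24 of 56 small-subunit members (42.9%) had a peak. In SPS the large-subunit share was 10.5 ± 4.09% and the small-subunit share 5.36 ± 2.92% (SD, n = 4).

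The H3 strains also allowed a test of the later times against 0 h, with 18 against 6 libraries and Fisher's exact test over 3501 genes. The strains were pooled without a strain stratum, although their later lists differed in members. The times of a strain counted as separate libraries. Here 3 members fell. RPS22B had a peak in 1 of 18 later libraries, against 5 of 6 at 0 h (adjusted p = 0.0212, Fisher's exact test). RPL27A had one in 0 of 18 against 4 of 6 (exact test, adjusted p = 0.028), and RPL7A in 2 of 18 against 5 of 6 (exact test, adjusted p = 0.0421). Of all genes tested, 6.71% fell and 0.686% rose, and 0 of the 123 members tested rose. How many members pass depends on single libraries at 0 h. A setting added after the data were seen left out the second 0 h libraries of H3 wild type and H3R2A, which held few members (2 and 12). That choice by itself raises the occupancy of members at 0 h, so its count is no separate test. Under it 13 members fell, against 4.90% of 3431 genes. They were RPL7A, RPL16B, RPL17B, RPL18B, RPL21B, RPL27A, RPL31B, RPL37A, RPS7A, RPS11B, RPS14A, RPS16B and RPS22B. Leaving out either H3K4R library at 0 h, or the first library of H3 wild type or H3R2A at 0 h, left 0 members called, and leaving out the second library of H3R2A at 0 h left 1. Without the second library of H3 wild type at 0 h, or of H3K4R at 6 h, 6 passed. The number of all genes that passed changed as well, and its range is given with the alternatives at the end.

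The copies of a pair often differed. Over all pairs and libraries, both copies were occupied 375 times and 1 copy alone 450 times, so 45.5% of pairs with a peak had it at both. The median difference between copies was 4 libraries, and 12 pairs differed by 10 or more. RPL9 stood farthest apart, with RPL9A in 5 and RPL9B in 35 of 62 libraries. RPL9A was occupied in 4 of 4 myc-tagged lists at 0 h. It was occupied in 0 of 8 H3K4R, 1 of 8 H3R2A and 0 of 8 H3 wild-type libraries. RPL9B was occupied in 8 of 8, 8 of 8 and 5 of 8 of these. RPS25A had 18 libraries and RPS25B 2. RPL23A had 2 and RPL23B 15, and RPL42A had 17 and RPL42B 4. RPS4A had 3 and RPS4B 15, and RPL14A had 7 and RPL14B 18. RPL41, RPS23 and RPS26 tied with RPL14 at a difference of 11. At 0 h the copies of these 6 pairs differed in the same direction, with 5 lists of 10 for RPL9A and 9 for RPL9B, 2 for RPS25B and 8 for RPS25A, and 2 for RPL23A and 8 for RPL23B. RPL42B had 1 and RPL42A 8, RPS4A 3 and RPS4B 8, and RPL14A 5 and RPL14B 9. The 6 pairs were chosen on all 62 libraries, so these differences are descriptions. Over all 59 pairs the copies had equal counts in the 6 later H3K4R lists in 10, as in RPL8 with 6 and 6, and the median difference was 2 lists. The part of reads shared by both copies in these differences was not tested.

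**Figure D5:**
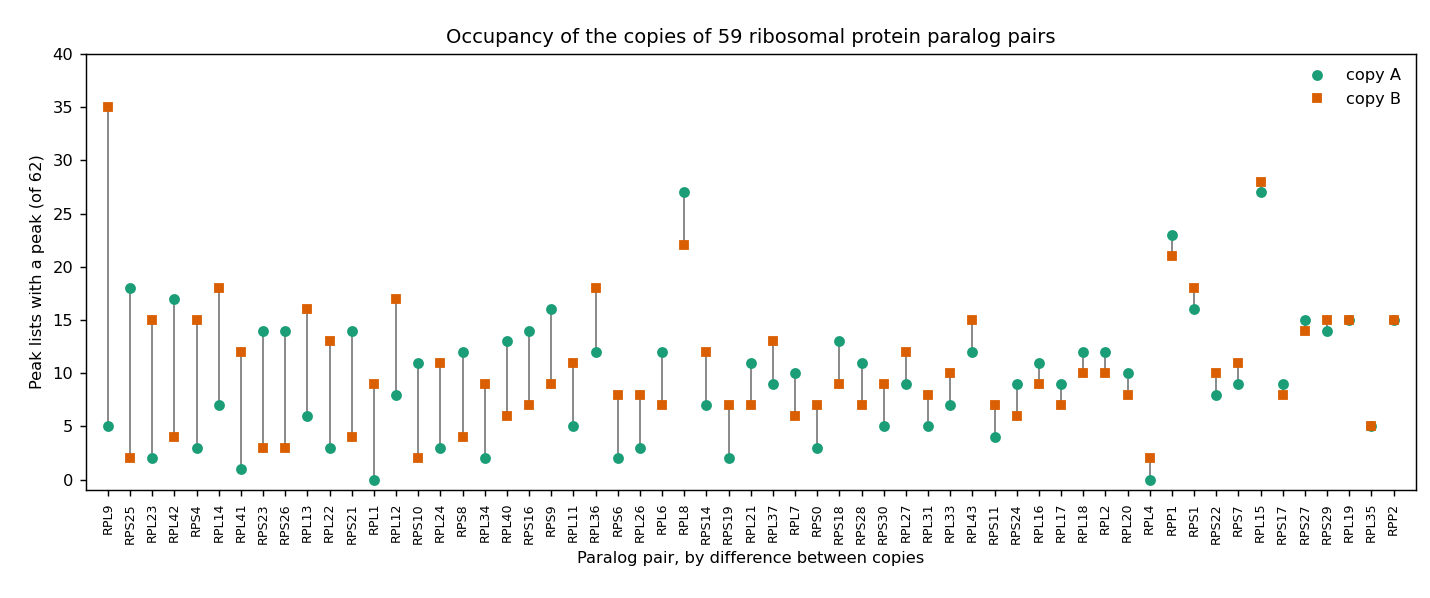
Number of the 62 peak lists with a peak at copy A (circles) and copy B (squares) of each of the 59 paralog pairs, ordered by the difference between the copies. RPL9 (5 and 35 lists) is at the left end, and pairs such as RPL19, RPL35 and RPP2, whose copies had equal counts, are at the right end.

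Across all 62 libraries a member was occupied in a median of 11, against 2 for other coding genes. The members with the most libraries were RPL9B (35), RPL10 (29), RPL15B (28), RPS12 (28), RPL8A (27), RPL15A (27), RPL29 (25) and RPS2 (25). RPL9B is at chromosome XIV 499681 to 500256 on the forward strand. Its peak spanned 499672 to 500422 in Bre2-myc and 499665 to 500265 in Spp1-myc at 0 h. RPL10, at chromosome XII 282927 to 283592, had midpoints between 281 and 464 bp in all 29 libraries and a median width of 551 bp. RPL8A had 2 separate peaks in 11 of its 27 libraries and RPL15A in 6 of 27. RPL29 differed from these in that its median midpoint was at −59 bp, before a coding region of 180 bp, and 8 of its peaks also lay in another gene's window. RPL1A and RPL4A had no peak in any library. RPL41A had 1, and RPL4B, RPL23A, RPL34A, RPS10B and RPS19A had 2 each, as did RPS6A and RPS25B, which tied with them. RPL41A and RPL41B are 78 bp long, so that their windows are almost all upstream sequence.

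The lists of the competition series were short, with 129 to 705 peaks for Spp1-GFP and 87 to 166 for Spp1-myc. Spp1-GFP lists held 0 to 3 members (at most 2.19%), against 1.08% to 10.7% of all coding genes. Spp1-myc lists held 0 to 2 members (at most 1.46%), against 0.500% to 1.72% of all coding genes. The share of members exceeded that of all coding genes in 1 of 8 Spp1-GFP lists and 0 of 10 Spp1-myc lists. A list with 0 of 137 members has a Wilson 95% upper limit of 2.73%, which covers counting error over genes only and not the spread between libraries. At 4.5, 5 and 5.5 h, with 6 against 6 libraries, 8 members could be tested and none passed, nor did any of 870 genes (0%), and at an unadjusted exact p under 0.05 there were 0 members and 29 genes. RPL15B was occupied in 2 of 6 Spp1-GFP and 0 of 6 Spp1-myc libraries (adjusted p = 0.86, exact test), and RPP1A in 2 of 6 and 1 of 6. RPL8B, RPL10, RPL15A and RPL18B each had a peak in 1 of 6 Spp1-GFP and 0 of 6 Spp1-myc libraries.

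Genes of related function were counted beside the members. Of 74 mitochondrial ribosomal protein genes, the myc-tagged strains occupied 2 to 16 at later times, against 9 to 31 at 0 h, and the H3K4R, H3R2A and H3 wild-type lists 2 to 40, 3 to 7 and 2 to 17 at later times. MRP8, MRP20, RSM7 and MRPL4 had the most libraries (43, 36, 30 and 29). In the H3 strains 3 of 48 tested fell at later times, where 6.71% of all genes tested fell. They were PET123 (0 of 18 against 5 of 6, adjusted p = 0.00969, exact test), MRPL8 (3 of 18 against 6 of 6, exact test, adjusted p = 0.0212) and MRPL16 (5 of 18 against 6 of 6, exact test, adjusted p = 0.0464). Among 21 regulators of ribosomal protein genes, 16 were tested there and 1 fell, against the same 6.71% of all genes. It was DOT6, a repressor (5 of 18 against 6 of 6, exact test, adjusted p = 0.0464). Regulators with many libraries included the kinase gene YAK1 (33) and the protein kinase A genes BCY1 (30) and TPK2 (25). Of 20 genes for ribosomal protein chaperones and ribosome-associated proteins, 0 passed in any comparison. At later times they were occupied in 3 to 9 of 20 cases in H3K4R, 3 to 6 in H3R2A and 1 to 4 in H3 wild type. EGD2, of the nascent polypeptide-associated complex, had 35 libraries, STM1 29, TMA19 23 and EGD1 20. Of the 6 later H3K4R and 6 later wild-type lists, EGD1 was occupied in 6 and 0, EGD2 in 6 and 3, TMA19 in 4 and 1 and STM1 in 6 and 6. In the other 5 comparisons 0 genes of these 3 lists passed. Genes at an unadjusted exact p under 0.05 were also counted in the mitochondrial, regulator and chaperone lists, in that order. For later times against 0 h in the myc-tagged strains they were 3 of 46, 4 of 14 and 9 of 15 tested, against 19.6% of all genes tested. In the H3 strains at later times against 0 h they were 11 of 48, 3 of 16 and 2 of 13, against 17.9%. In H3K4R against H3 wild type they were 0 of 48, 1 of 16 and 1 of 12, against 5.82%. In H3R2A against H3 wild type they were 0 of 41, 0 of 16 and 1 of 12, against 2.73%. There were none in H3K4R against H3R2A or in the competition series.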

How the data were processed

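The authors deposited 1 peak list per library for 62 of 64 labelled samples. Per the submitters' processing notes, BWA, deepTools and the sacCer3 build were used, and the peak caller is not given in the sources used here. Each deposited row holds chromosome, start, end, width and a score between 0.5 and 1, with no normalization stated. The score was used only as a percentile within its own list. The 2787 peaks on a sequence named chrXVII, of 56230 in all, met no annotated gene.

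Gene positions and strands came from a RefSeq table (R64), which holds no exons or sequence, so no promoter motif or sequence was examined. A peak counted for each gene whose window held its midpoint, and 5.27% of member peaks counted for more than 1. Fisher's exact test, or an exact test stratified by strain, was run per gene on presence or absence, two-sided, over genes occupied in 1 or more libraries of the comparison, with Benjamini-Hochberg adjustment and a threshold of 0.05. A percentile pools ties at their mean rank. Counts of members by set, positions and widths are descriptions. The tests were checked on simulated data, where the stratified design recovered 0 of 200 changed genes and the H3 design of later times against 0 h 197. Read depth is unknown, and Wilson intervals (95%) cover counting error only.

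The members and lists were chosen with earlier results of these data known. Named genes were the members called in each comparison (or the first 6 per direction), the 8 with most and with fewest libraries, those with a later Spp1-myc peak and the 6 most unequal pairs, ties by symbol, others being named after their values were seen. Some genes that the rule would name are not reported here. Alternatives were windows of 250 and 1000 bp, any overlap, the higher-scoring part of each list, lists of equal length, peaks of 1 gene only, other strata and leaving out libraries. Python 3.11.15, numpy 2.4.6, pandas 2.3.3, scipy 1.17.1 and matplotlib 3.10.9 were used.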

Additional observations from a re-analysis of the deposited data

Results flagged for a closer look

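Of the libraries of H3 wild type at all times, the first at 0 h stood apart, with 106 occupied ribosomal protein genes against 2 to 8 in the other 7. These 8 libraries span 4 times, so time is part of the gap. Beside other lists at 0 h the count of 106 did not stand apart, as the myc-tagged strains held 106 to 130 and H3K4R 63 and 111. Among the 6 H3 libraries at 0 h the lowest was the second of H3 wild type, with 2. Of 10 competition Spp1-myc libraries, the first at 5 h stood apart with 2 occupied genes, against 0 or 1 in the others, a difference of 1 gene. They were picked out by the gap to the nearest library relative to the range, over 14 sets of 4 to 10 libraries, some of which share libraries, and chance alone picks about 1 set in 20.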

How the results depend on the processing

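For later times against 0 h in the myc-tagged strains, the count of 0 genes and 0 members became 243 and 77 with a 250 bp window, 228 and 74 with peaks of 1 gene window only, and 448 and 98 by Fisher's exact test without strata (lowest adjusted p 0.0472, 0.0475 and 0.00718). For later times against 0 h in the H3 strains (259 genes, 3 members), the count was 1 member with a 250 bp window, 98 genes and 1 member with lists of equal length and 160 genes when each list kept its higher-scoring peaks. Leaving out 1 library gave 77 to 306 genes and 0 to 6 members. Leaving out both second 0 h libraries of H3 wild type and H3R2A, picked for their few members, gave 13 members. For H3K4R against H3 wild type, leaving out 1 library gave 0 to 12 genes and 0 to 4 members. Mean occupied members per library became 85 with the higher-scoring part (117.5 as reported, myc-tagged strains at 0 h), 11.8 with a 1000 bp window (5.58, same strains later), and in later H3 wild-type lists (4.33) 7.5, 1.33 and 1.67 with the 1000 bp window, the higher-scoring part and lists of equal length. The cause was not tested. Of 340 values and counts under alternatives, 310 stayed within the margin set for them and 30 moved. Of the values for named members, 1096 stayed the same, 31 lost a call and 21 gained a call. Another 6 changed direction without a call in the main setting. A reversal was scored only for named members called in the main setting, and none was found. The replicate numbers were not taken to pair the libraries, since the correlations of replicate differences over 15 pairs of strains and times ran from −0.158 to 0.210. With the replicate block 206 genes and 2 members passed in the H3 strains later against 0 h, RPL7A being lost, and 0 in the other comparisons. Promoter motifs were not run, for want of sequence.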
